A study of Rattus norvegicus with 13 samples.

Results

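The genes described here encode tubulin isotypes, the closely related alpha, beta and gamma forms of the protein that microtubules are made of. They were taken as the probe sets of the array whose only platform symbol is 1 of 10 listed genes, and 9 probe sets of 7 genes met this rule, of 31042 probe sets that are not controls and 14217 genes that have a probe set of their own. *Tuba4a* (1371542_at), *Tubb2a* (1373718_at), *Tubb2b* (1388131_at), *Tubb4b* (1371390_at) and *Tubg1* (1370809_at) had 1 such probe set each, and *Tubb3* (1369901_at and 1371618_s_at) and *Tubb5* (1370290_at and 1387892_at) had 2. The alpha-tubulin genes *Tuba1a*, *Tuba1b* and *Tuba1c* share a single probe set that lists all 3 symbols, so no level can be given to any of them alone.

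The material came from rat cortical cells kept 13 days in culture in microfluidic devices whose compartments let axons grow into a chamber of their own, apart from the cell bodies. GeneChip arrays measured polyadenylated RNA from 7 samples of uninjured axons, from 3 samples of regenerating axons (axotomy at day 11, harvest 2 days later), and from 3 samples of uninjured neurons taken from the neuronal compartment. All groups share the culture medium, Neurobasal E with B27. For every array 3 devices were pooled and the RNA was amplified in 2 rounds. Strain, age and genotype of the animals are not given in the sources used here. The uninjured arrays came from 3 culture batches, but which array belongs to which batch is not given, nor whether regenerating or neuron arrays were separate cultures. P-values therefore measure only the spread between these samples, which may be technical.

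Every value is a linear ratio and not a signal. Uninjured arrays 1 to 3 and 4 to 6 were each divided, row by row, by the median of their own set, and uninjured array 7 reads 1 in every row and holds no measurement. What the regenerating and neuron arrays were divided by is not stated. The uninjured axon level was assumed, and each direction against uninjured axons rests on that. Ratios say nothing of how abundant an mRNA is, and those of different genes do not rank their levels. In bulk samples such as these, fewer cells or axons and less RNA per cell cannot be told apart.

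Microtubules are hollow polymers of alpha- and beta-tubulin dimers, and they form the tracks on which cargo moves along axons. Gamma-tubulin is not part of the wall and instead nucleates new microtubules within a ring complex. Vertebrates carry several genes for each subunit, whose proteins are very alike and differ mostly in their acidic tails. Developing neurons are known for high tubulin mRNA levels, and *Tubb3* is widely used as a marker of neurons.

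The arrays differed in more than the groups. Hybridisation controls, bacterial and phage transcripts added in a fixed amount, had median ratios over 18 probe sets of 0.275, 0.910 and 0.157 in neuron arrays 1 to 3, of 1.14, 1.44 and 1.57 in the regenerating arrays, and of 0.928 to 1.10 in uninjured arrays 1 to 6. Neuron markers had array medians of 3.13 to 6.23 in the neuron arrays and 0.577 to 0.906 in the regenerating arrays. Of their 13 probe sets, 10 were higher and 1 lower in neurons than in uninjured axons. Over all probe sets, 28.4% were higher and 27.5% lower. Astrocyte markers stood at 12.8 to 14.6 and 0.869 to 1.01, with 10 of 14 probe sets higher in neurons and 1 lower. Dividing cell markers stood at 1.502 to 2.42 in neurons (4 of 8 probe sets higher, 1 lower). Oligodendrocyte lineage markers stood at 1.09 to 1.12 (3 of 9 higher, 1 lower) and fibroblast and vascular markers at 0.608 to 0.776 (1 of 6 higher, 3 lower). Microglia markers lay at 0.408 to 0.606 in the neuron arrays (0 of 7 probe sets higher, 6 lower). The genes for smell, taste and pheromone receptors, which cortical cells are assumed not to use, lay at a similar 0.485 to 0.617. Control probe sets for beta-actin and GAPDH, which nearly all cells express, read 28.6 to 179.3 and 7.19 to 70.8 in the neuron arrays, a range that reaches above every tubulin probe set. The part of other cell types and of RNA amount in the tubulin results was not tested. Uninjured array 1 stood apart in having 1.68% of probe sets at or below 0.5, against 0.0387% to 0.528% in uninjured arrays 2 to 6.

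Neurons were set against uninjured axons to compare the mRNA populations of the neuronal compartment and of axons. The listed tubulin probe sets were mostly higher in neurons. Of the 9, 7 passed in that direction, 1 passed as lower and 1 did not pass. Over all probe sets, 28.4% were higher and 27.5% lower (55.9% in either direction). In 8 of 9 the neuron arrays lay above all measured uninjured arrays (33.1% of all probe sets) and in 1 below (36.8%). The largest excess was that of *Tubb5* 1387892_at at 37.8-fold, and the exception was a probe set of *Tubb3*. The median over the 9 probe sets was log2 3.48, beside log2 -0.07 over all 31042. These 9 belong to a list chosen with earlier results of these data known. Other tubulin genes, counted below, had a median of log2 0.35 over 10 probe sets. The test was limma on log2 ratios (log2 difference ± SE, n = 3 arrays), with Benjamini-Hochberg adjustment over all probe sets. Its SE includes an assigned error of 1 array for the reference, which was not measured.

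Of the alpha-tubulins, *Tuba4a* alone was measured by itself. It encodes an alpha-tubulin that lacks the encoded carboxy-terminal tyrosine of most other alpha isotypes. Its ratios in neuron arrays 1, 2 and 3 were 9.76, 5.82 and 12.5, above the uninjured range of 0.743 to 1.21 (median 1, arrays 1 to 6). The difference was log2 3.16 ± 0.41, or 8.92-fold (limma adjusted p = 0.000211).

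Promoters of 4 beta-tubulin genes are shown because a probe set of each had the lowest means in regenerating axons and the widest differences between neurons and regenerating axons. Each run holds 250 bases before to 50 bases after the gene's start, from RefSeq on build GRCr8, and all 7 measured genes had an entry. Capitals mark matches on either strand to 5 motifs: the TATA box searched as TATAAA, the CCAAT box by its name's letters, the GC box searched as GGGCGG, the cAMP response element by its last bases ACGTCA, and the E-box searched as CACGTG.
Tubb2a (GRCr8, chr17:31001936-31002235, plus strand): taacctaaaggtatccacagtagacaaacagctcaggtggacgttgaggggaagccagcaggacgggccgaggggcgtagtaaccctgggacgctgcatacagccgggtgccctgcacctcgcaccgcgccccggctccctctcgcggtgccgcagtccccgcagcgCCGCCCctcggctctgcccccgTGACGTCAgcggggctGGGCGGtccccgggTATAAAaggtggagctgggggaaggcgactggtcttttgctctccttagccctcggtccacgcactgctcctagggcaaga
Tubb2b (GRCr8, chr17:30952836-30953135, plus strand): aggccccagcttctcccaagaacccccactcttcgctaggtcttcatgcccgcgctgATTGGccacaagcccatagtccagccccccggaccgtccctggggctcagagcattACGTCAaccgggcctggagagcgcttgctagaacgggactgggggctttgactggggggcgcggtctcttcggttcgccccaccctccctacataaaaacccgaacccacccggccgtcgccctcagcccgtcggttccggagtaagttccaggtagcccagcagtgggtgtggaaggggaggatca
Tubb3 (GRCr8, chr19:68365437-68365736, plus strand): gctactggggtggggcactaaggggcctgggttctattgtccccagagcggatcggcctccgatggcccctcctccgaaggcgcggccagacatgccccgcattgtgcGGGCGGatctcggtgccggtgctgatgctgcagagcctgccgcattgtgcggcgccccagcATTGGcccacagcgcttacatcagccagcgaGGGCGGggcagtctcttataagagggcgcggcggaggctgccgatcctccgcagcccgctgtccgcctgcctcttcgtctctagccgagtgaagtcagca
Tubb5 (GRCr8, chr20:2917327-2917626, plus strand): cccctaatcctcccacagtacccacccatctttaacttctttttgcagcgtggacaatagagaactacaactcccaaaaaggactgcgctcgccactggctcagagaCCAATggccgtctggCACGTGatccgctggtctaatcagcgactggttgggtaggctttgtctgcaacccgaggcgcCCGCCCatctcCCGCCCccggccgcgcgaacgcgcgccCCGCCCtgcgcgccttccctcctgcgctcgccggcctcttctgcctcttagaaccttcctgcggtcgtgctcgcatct
The letters ACGTCA are found in *Tubb2a*, as overlapping matches on both strands, and in *Tubb2b*, and in no other of the 7 promoters. In all 33469 promoters of the same length 7.94% hold them. A TATAAA match is present in *Tubb2a* and *Tubb4b* (14.2% of all promoters), and CACGTG in *Tubb5* (6.42%). GGGCGG is present in 5 of 7 (33.1% of all) and CCAAT in 5 of 7 (37.5% of all). GC content of the 7 lay between 53.0% and 67.3%, beside a median of 51.7% over all promoters. A match is a description of the letters and not a bound site.

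Among the beta-tubulins, *Tubb2a*, a major neuronal isotype, read 17.6, 12.3 and 17.5 in the neuron arrays and 0.311 to 1.21 (median 1) in the uninjured arrays. It was higher in neurons by log2 3.96 ± 0.61, or 15.6-fold (limma adjusted p = 0.000633). *Tubb2b*, its neighbour on chromosome 17 and a gene needed for neuronal migration in the cortex, read 3.48, 2.09 and 2.76, against 0.377 to 1.48 in uninjured axons. The groups of *Tubb2b* did not overlap, but the log2 difference of 1.44 ± 0.59 did not pass (limma adjusted p = 0.0607). The uninjured spread of both genes was set largely by array 1, the lowest for each. *Tubb2b* passed without uninjured array 1 (adjusted p = 0.00530 in limma), without uninjured array 3 (0.0315), and without neuron array 2 (0.0464). It also passed with the reference taken as exact (limma adjusted p = 0.00118), with the spread from the neuron arrays alone (0.0288) and with arrays scaled to the hybridisation controls (log2 3.00, 0.00980). In all it passed in 7 of 16 alternatives.

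*Tubb4b*, a broadly expressed isotype that is also found in cilia, read 14.6, 10.1 and 18.5 in neurons and 0.890 to 1.93 in uninjured axons. The difference was log2 3.80 ± 0.44, or 14.0-fold (limma adjusted p = 0.000118). *Tubb5*, the ubiquitous beta-tubulin that is abundant in developing brain, was higher in neurons by both of its probe sets. 1370290_at read 10.5, 9.59 and 13.8 in neurons and 0.923 to 1.11 in uninjured axons, a difference of log2 3.48 ± 0.23 (limma adjusted p = 6.23e-06). 1387892_at read 42.4, 30.2 and 42.0 in neurons and 0.716 to 1.63 in uninjured axons, a difference of log2 5.24 ± 0.39 (limma adjusted p = 1.07e-05). The readings of 1387892_at were 3.03 to 4.03 times those of 1370290_at in the same neuron arrays, so the probe sets shared a direction but not a size.

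*Tubb3* encodes the beta-tubulin that is largely restricted to neurons, and its probe sets disagreed in sign. 1371618_s_at read 11.8, 9.42 and 12.5 in neurons and 0.710 to 1.64 in uninjured axons, a difference of log2 3.48 ± 0.42 (limma adjusted p = 0.000137). 1369901_at read 0.441, 0.430 and 0.395 in neurons and 0.804 to 1.06 in uninjured axons, a difference of log2 -1.25 ± 0.22, or 2.37-fold lower in neurons (limma adjusted p = 0.00124). Neither probe set overlapped between neurons and uninjured axons, and in each neuron array 1371618_s_at stood 21.9 to 31.6 times above 1369901_at. The value of 1369901_at lies within that of the receptor genes named above, which are not tubulins, in the same comparison (log2 -1.61 to 0.20 over 28 probe sets, 18 of them lower in neurons). Scaled to the hybridisation controls, its difference was log2 0.31 and did not pass (limma adjusted p = 0.801). The suffix _s_at marks a probe set whose probes can match several transcripts, and whether 1371618_s_at read other tubulins was not tested. A gene value that averages the 2 probe sets, at log2 1.12, describes neither of them.

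*Tubg1*, which encodes the main gamma-tubulin, read 6.79, 3.91 and 6.95 in neurons and 0.881 to 1.07 in uninjured axons. It was higher by log2 2.51 ± 0.31, or 5.70-fold (limma adjusted p = 0.000158).

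Neuron array 2 had the lowest ratio of the 3 neuron arrays in all 8 probe sets that stood above the uninjured arrays. It was also the lowest in each beta-actin and GAPDH control probe set and in the medians of the neuron and astrocyte markers. The order was thus not particular to tubulins, and its share over all probe sets was not counted. That array was also the one whose hybridisation controls were nearest to the reference. In order of their excess in neurons, *Tubb5* 1387892_at lay above *Tubb2a* in 3 of 3 arrays with ranges that did not overlap (log2 1.28 ± 0.02, SD). *Tubb2a*, *Tubb4b*, *Tubb5* 1370290_at, *Tubb3* 1371618_s_at and *Tuba4a* followed, and each overlapped the next. *Tuba4a* and *Tubg1* overlapped in range too, although *Tuba4a* was higher in each array (log2 0.65 ± 0.17, SD, n = 3). *Tubb2b* lay below *Tubg1* in 3 of 3 arrays without overlap (log2 1.07 ± 0.23, SD).

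**Figure D1:**
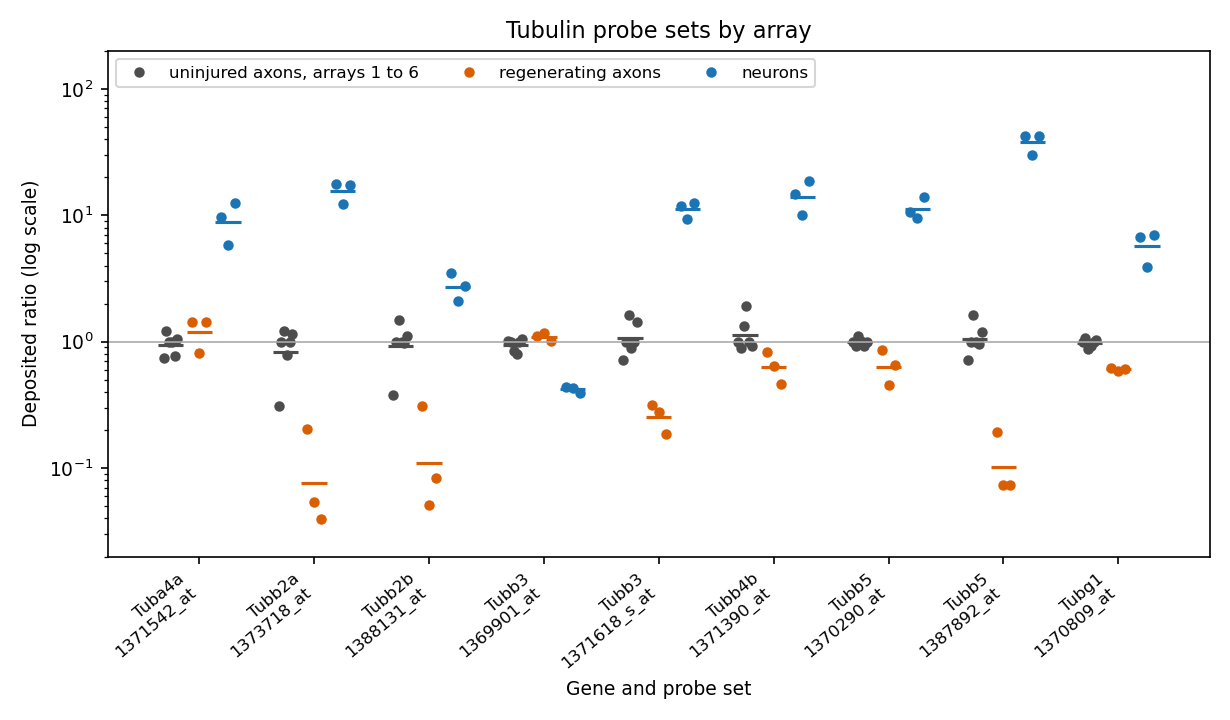
Deposited ratio (log axis) of each of the 9 tubulin probe sets on every measured array, with points for arrays and bars for the group mean of the log2 ratios (6 uninjured, 3 regenerating, 3 neuron arrays). In 8 probe sets the neuron arrays lie above every uninjured array, and *Tubb3* 1369901_at lies below, at 0.395 to 0.441.

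Regenerating axons, 2 days after axotomy, were compared with axons that had not been cut. Of the 9 tubulin probe sets 1, *Tubb5* 1387892_at, passed as lower and none passed as higher, where 0.335% of all probe sets were lower and 0.00966% higher (0.345% in either direction). Before adjustment, 5 of the 9, and 3369 of all 31042, had a p under 0.05 in limma. In 7 of 9 probe sets the 3 regenerating arrays lay below all of uninjured arrays 1 to 6, against 10.9% of all probe sets, and none lay above, against 10.3%. The median over the 9 was log2 -0.72, beside log2 0.03 over all probe sets. All GAPDH control probe sets also lay below uninjured arrays 1 to 6, at 0.1376 to 0.4955 against a lowest uninjured reading of 0.5986. The 3′ and middle beta-actin probe sets did so too, while the 5′ one overlapped. Low readings in regenerating axons were thus not particular to tubulins.

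*Tubb5* 1387892_at read 0.194, 0.0738 and 0.0741 in regenerating arrays 1, 2 and 3, below the lowest uninjured value of 0.716. It was 9.80-fold lower (log2 -3.29 ± 0.55, limma adjusted p = 0.0474). The call was lost without regenerating array 2 (adjusted p = 0.134 in limma) or 3 (0.130) and without uninjured array 2 (0.0867), 5 (0.0670) or 6 (0.0836). Its other probe set, 1370290_at, read 0.861, 0.457 and 0.656, with a log2 difference of -0.65 ± 0.29 that did not pass (limma adjusted p = 0.462). Thus the 2 probe sets of *Tubb5* again had the same sign and different sizes, with 1387892_at at 0.113 to 0.226 times 1370290_at within each array.

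*Tubb2a* had the lowest mean of the 9, at 0.206, 0.0543 and 0.0398, although *Tubb5* 1387892_at was lower in array 1 and *Tubb2b* in array 2, with a log2 difference of -3.71 ± 0.88 (limma adjusted p = 0.121). *Tubb2b* read 0.311, 0.0508 and 0.0840, with a log2 difference of -3.19 ± 0.89 (limma adjusted p = 0.172). Neither passed, although arrays 2 and 3 read far lower than any uninjured array. Array 1 lay close to the lowest uninjured readings, those of uninjured array 1, at 0.311 for *Tubb2a* and 0.377 for *Tubb2b*. Without regenerating array 1 both passed, with limma adjusted p = 0.0135 for *Tubb2a* and 0.0211 for *Tubb2b*. The number of tubulin probe sets that were lower then became 3, while that of all probe sets rose from 104 to 462.

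*Tubb3* 1371618_s_at read 0.316, 0.276 and 0.186, with a log2 difference of -1.98 ± 0.45 that did not pass (limma adjusted p = 0.109). *Tubb3* 1369901_at read 1.11, 1.17 and 1.01, overlapping the uninjured arrays, with a log2 difference of 0.13 ± 0.21 (limma adjusted p = 0.913). The probe set that was high in neurons was thus the one with low ratios in regenerating axons, and the other stayed within 1.01 to 1.17. *Tubb4b* read 0.832, 0.641 and 0.462 (log2 -0.67 ± 0.43, limma adjusted p = 0.655), which is below its uninjured range.

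*Tubg1* read 0.621, 0.589 and 0.612, a narrow range below the uninjured values, with a log2 difference of -0.72 ± 0.18 (limma adjusted p = 0.134). *Tuba4a* read 1.44, 0.821 and 1.43 and overlapped the uninjured arrays (log2 0.25 ± 0.36, limma adjusted p = 0.897). No tubulin ratio was at 0.01, the lowest value in the table.

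How many tubulin probe sets passed depended on the error given to the reference. With the reference taken as exact, 7 of 9 were lower in regenerating axons, all but *Tuba4a* and *Tubb3* 1369901_at, while 3707 of all probe sets were lower and 3539 higher. With the spread taken from the regenerating arrays alone, no tubulin passed, while 92 of all probe sets were lower. With arrays scaled to the hybridisation controls, 4 passed as lower: *Tubb2a*, *Tubb3* 1371618_s_at, *Tubb5* 1387892_at and *Tubg1*. In that setting 955 of all probe sets were lower and 0 higher.

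**Figure D2:**
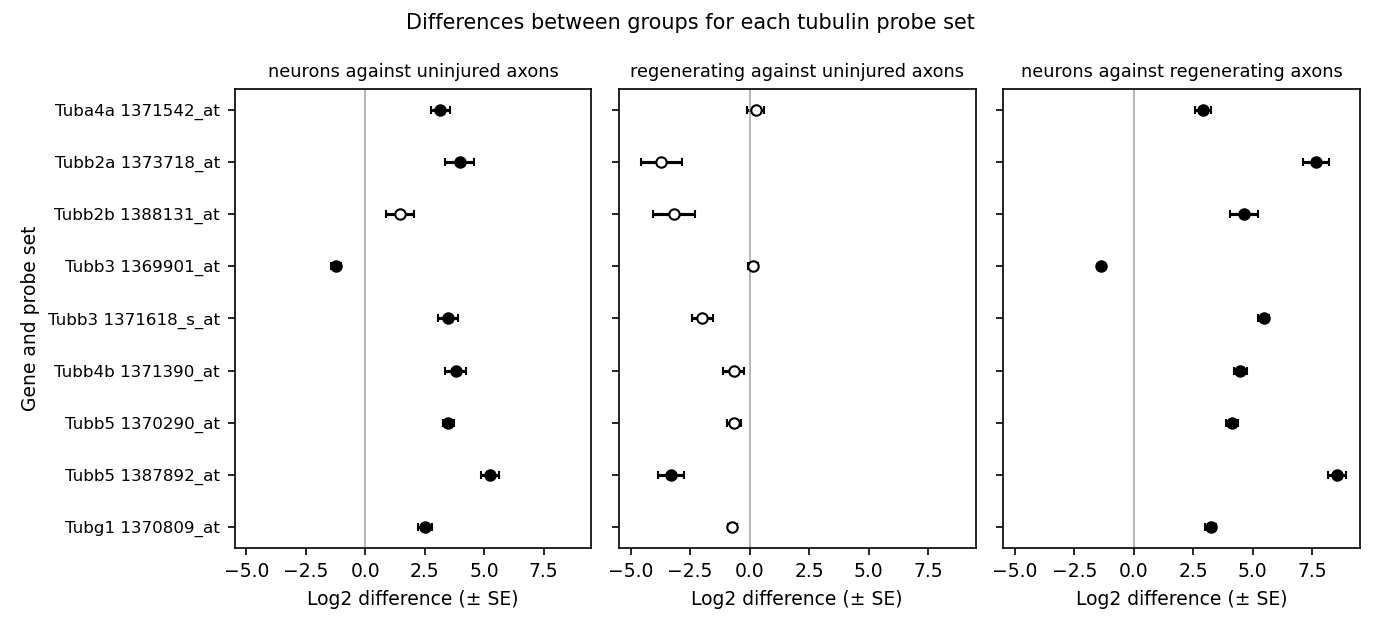
Log2 difference (± SE, limma, n = 3 arrays per regenerating or neuron group) of each tubulin probe set in the 3 comparisons, with filled points for an adjusted p under 0.05. In the regenerating comparison *Tubb5* 1387892_at is the filled point, at -3.29, and in the comparison of neurons with regenerating axons all 9 are filled.

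The probe sets of a gene can be set against each other within an array, where a factor common to the whole array cancels. The division of each row by its own reference does not cancel, nor does any normalization that is not 1 factor per array. For *Tubb3*, 1371618_s_at minus 1369901_at was log2 4.73 ± 0.26 (SD, n = 3) in neurons, -2.11 ± 0.31 (n = 3) in regenerating axons and 0.17 ± 0.49 (n = 6) in uninjured axons. For *Tubb5*, 1387892_at minus 1370290_at was log2 1.76 ± 0.22 in neurons, -2.64 ± 0.50 in regenerating axons and 0.08 ± 0.34 in uninjured axons. In each pair the same probe set was the higher in neurons and the lower in regenerating axons, in 3 of 3 arrays of each group. A reading for *Tubb3* or *Tubb5* in these groups therefore depends on which probe set is taken.

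**Figure D3:**
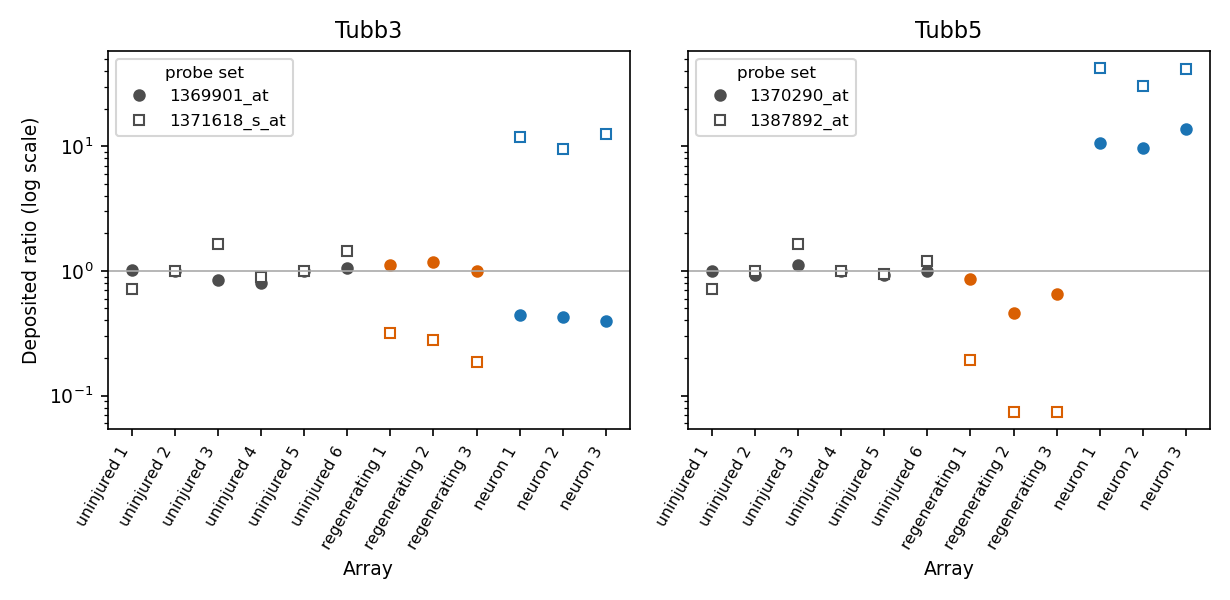
Ratio (log axis) of both probe sets of *Tubb3* and of *Tubb5* on each measured array, with filled circles and open squares for the probe sets and colours for the groups. The open squares lie above the circles in the 3 neuron arrays and below them in the 3 regenerating arrays for both genes.

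Neurons and regenerating axons were also compared directly, which uses a spread measured in both groups and holds if both were divided by the same reference. All 9 probe sets passed, 8 as higher in neurons and *Tubb3* 1369901_at as lower, where 35.2% of all probe sets were higher and 37.3% lower (72.5% in either direction). The neuron arrays lay above all regenerating arrays in 8 of 9 (36.9% of all probe sets) and below them in 1 (40.4%). *Tubb5* 1387892_at differed by log2 8.53 ± 0.37 (limma adjusted p = 7.10e-07), *Tubb2a* by 7.67 ± 0.54 (7.23e-06) and *Tubb3* 1371618_s_at by 5.46 ± 0.23 (6.16e-07). *Tubb2b* differed by 4.63 ± 0.58 (limma adjusted p = 0.000184), *Tubb4b* by 4.48 ± 0.28, *Tubb5* 1370290_at by 4.14 ± 0.26, *Tubg1* by 3.23 ± 0.24 and *Tuba4a* by 2.90 ± 0.33. *Tubb3* 1369901_at differed by -1.38 ± 0.15 (limma adjusted p = 8.36e-05), and by 0.64 (limma adjusted p = 0.485) with arrays scaled to the hybridisation controls. These comparisons share arrays with those against uninjured axons and are not independent of them.

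The uninjured arrays show how far tubulin readings varied with no difference in treatment. In uninjured array 1 the tubulin probe sets ranged from 0.311 to 1.01, with 5 below 1, 1 above and 3 at 1. In that array 2 of 9 were at or below 0.5, where 1.68% of all probe sets were. In uninjured array 3 of the same set 6 of 9 were above 1, with a highest value of 1.64. These counts are tied to each other, because the median of every row over arrays 1 to 3 was set to 1. A reading below 1 in array 1 thus places another array of the set at or above 1. The shares of all probe sets above and below 1 were not counted. Across arrays 1 to 6 the highest reading of a probe set was 3.88 times the lowest for *Tubb2a* and 3.94 times for *Tubb2b*. It was 1.20 times for *Tubb5* 1370290_at, 1.22 for *Tubg1* and 1.32 for *Tubb3* 1369901_at, the most even of the 9. Between those, *Tuba4a* spanned 1.63 times, *Tubb4b* 2.17, *Tubb5* 1387892_at 2.28 and *Tubb3* 1371618_s_at 2.30. The 4 probe sets with the lowest means in regenerating axons were *Tubb2a*, *Tubb5* 1387892_at, *Tubb2b* and *Tubb3* 1371618_s_at. They were also the 4 with the widest spread in uninjured axons by the highest reading over the lowest. Each was lowest in uninjured array 1 and highest in uninjured array 3. By the SD of log2 ratios, *Tubb4b* (0.43) spread more widely in uninjured axons than *Tubb5* 1387892_at (0.39). Whether differences between the culture batches are of this size cannot be told, since each ratio set was divided by its own median.

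Other genes of tubulin biology were counted in the same comparison, against the 28.4% of all probe sets that were higher in neurons than in uninjured axons and the 27.5% that were lower. The lists were chosen with earlier results of these data known, and their differences from the tubulin isotype genes were not tested. Of 10 probe sets of 5 other tubulin genes, 3 were higher in neurons than in uninjured axons and 1 was lower, with a median of log2 0.35. The higher probe sets were 1376100_at of *Tubb6*, a broadly expressed beta-tubulin (log2 0.84 ± 0.20), and 2 of the 3 of *Tubb4a*. *Tubb4a* is an isotype rich in brain and in myelinating cells. Its higher probe sets were 1393635_x_at (1.15 ± 0.25) and 1398624_x_at (1.38 ± 0.32), and whether these read other tubulins was not tested. The remaining *Tubb4a* probe set, 1384927_at, did not pass (log2 0.44 ± 0.27). The other probe set of *Tubb6*, 1394144_at, had the opposite sign and did not pass (log2 -0.54 ± 0.35). The probe set that passed as lower was that of *Tubb1*, known from platelets and their precursors. Its value (log2 -2.15 ± 0.38, limma adjusted p = 0.00143) lay beyond the receptor range given above. The count of 3 in 10 is close to the share over all probe sets. Between regenerating and uninjured axons none of the 10 passed in limma, where 0.345% of all probe sets passed. None of the 10 had an unadjusted p under 0.05, beside 3369 of all 31042 probe sets.

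Of 8 probe sets for the gamma-tubulin complex and its partners, 3 were higher in neurons, those of *Mzt1* (log2 2.53 ± 0.30), *Tubgcp3* (0.91 ± 0.24) and *Tubgcp2* (0.89 ± 0.26), and none was lower. *Mzt1* encodes a small subunit of the ring complex and the other genes encode larger ones. A count of 3 in 8 is near the share over all probe sets. The median was log2 0.59.

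Of 30 probe sets for tubulin modifying enzymes, 14 were higher in neurons, 6 were lower and 10 did not pass, with a median of log2 0.09. The deacetylase genes *Sirt2* (log2 4.08 ± 0.29) and *Hdac6* (2.61 ± 0.32), the detyrosinating enzyme gene *Matcap1* (3.86 ± 0.42) and the polyglutamylase gene *Ttll7* (3.44 ± 0.30 and 2.68 ± 0.39, where another probe set did not pass) were among the higher. *Ttll5* (-1.37 ± 0.18, with another probe set that did not pass) and *Ttll3* (-1.12 ± 0.23) were lower. *Vash2*, a tubulin detyrosinating enzyme gene, had 2 probe sets higher and 2 lower, and *Ttl*, whose enzyme adds tyrosine back, had 1 higher, 1 lower and 1 that did not pass. Between regenerating and uninjured axons none of the 30 passed in limma, nor any of the 8 for the complex, as the share of 0.345% over all probe sets would give. Before adjustment, 2 of the 30 and 1 of the 8 had a p under 0.05, beside 3369 of all 31042 probe sets. Log2 values ran from -1.37 to 0.52 for the enzymes and from -1.07 to 0.57 for the complex, beside -3.71 to 0.25 for the 9 tubulin isotype probe sets. Of these enzymes *Matcap1* had the smallest p (log2 -1.33 ± 0.27, limma adjusted p = 0.0776).

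**Figure D4:**
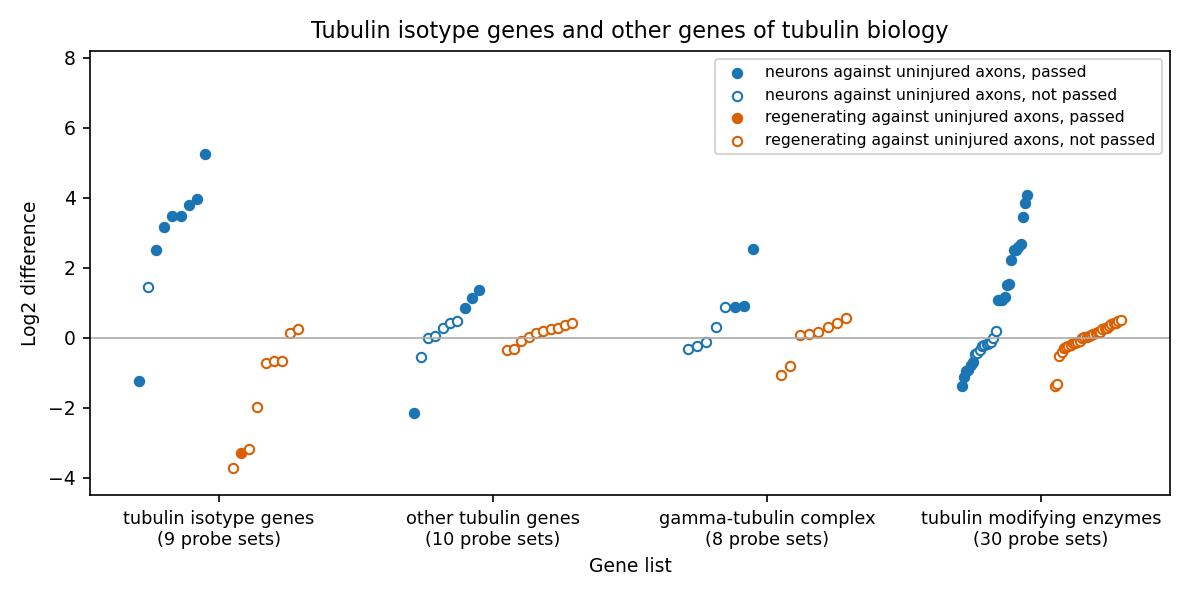
Log2 difference of each probe set of the tubulin isotype genes and of 3 other lists against uninjured axons, for neurons (blue) and regenerating axons (orange), with filled points for an adjusted p under 0.05 in limma. The listed tubulin isotype genes have a median of 3.48 in neurons. The medians are 0.35 for other tubulin genes, 0.59 for the gamma-tubulin complex and 0.09 for tubulin modifying enzymes. The lists were chosen with earlier results of these data known, and differences between them were not tested.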

How the data were processed

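RMA is named in the submitters' processing notes with no version or settings. The deposited table nevertheless holds linear ratios of 31099 probe sets on 13 arrays, and the division that made them is not given in the sources used here. Row medians of 1 (tolerance 0.0001) held in 100% of rows for uninjured arrays 1 to 3 and for 4 to 6, and in 0.0934% and 0.0193% for regenerating and neuron arrays. The 57 control probe sets were left out of tests. Symbols came from the platform annotation, checked by gene identifier against GRCr8, and no tubulin symbol changed. 20826 probe sets had 1 symbol. The table holds no signals, so dim probe sets could not be filtered.

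Each probe set's log2 ratios were fitted in limma 3.58.1 under R 4.3.3, using lmFit and then eBayes. Against uninjured axons, the spread was pooled from the 3 arrays of the group and from uninjured arrays 1 to 6 about their set mean, and array 7 stood for a reference with the error of 1 array. Neurons and regenerating axons were compared in a 2-group fit. P-values were adjusted by Benjamini-Hochberg over 31042 probe sets, with a threshold of 0.05. On simulated ratios of 31042 probe sets, the neuron fit recovered 68.0% of changes of log2 1.5 and 93.0% of log2 3, and the regenerating fit 64.0% and 94.0%, with 9 of 30842 unchanged probe sets called in each. The 2-group fit recovered 74.0% and 95.0%, with 4 called. In each simulation 100 probe sets were changed at each size, and the noise of every array came from the spread of uninjured arrays 1 to 3. The spread of the regenerating and neuron arrays was not used, so these shares need not hold for them. The simulated reference was given the error of 1 array, which the fits against uninjured axons also assume. The simulation therefore cannot check that assumption. The number of arrays limits the precision.

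All tubulin probe sets are named, and of other lists those genes whose probe sets passed and lay at the ends. The members and lists were chosen with earlier results of these data known. Alternatives were the reference error, the arrays giving the spread, scaling, pairing by replicate number, gene means, a pseudocount of 0.1 and each array left out. Scaling to hybridisation controls was chosen after seeing the data. Replicate numbers are shared by the groups, but the labels do not say that they pair samples. Protein sequences were not used here.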

Additional observations from a re-analysis of the deposited data

Results flagged for a closer look

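Uninjured array 1 lay far below the other 5 measured uninjured arrays in a pair of tubulin probe sets, by Dixon's criterion for 6 values taken on log2 ratios. Its ratio was 0.311 for *Tubb2a* (1373718_at), where the gap to the next array took 0.685 of the whole range, and 0.377 for *Tubb2b* (1388131_at), where it took 0.697, against a critical value of 0.625. On the linear ratios the shares were 0.532 and 0.544, both under that value, so neither reading passes on that scale. Chance flags about 1 in 20 such groups, 9 probe sets were examined, and the 6 values are ratios to the medians of 2 separate sets.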

How the results depend on the processing

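All 8 tubulin probe sets with a positive difference between neurons and either axon group kept that direction under each alternative run. Of 108 and 144 single values in the comparisons of neurons with regenerating and with uninjured axons, 106 and 135 kept their direction and side of the threshold. In the comparison of regenerating with uninjured axons 123 of 144 did.

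With a fixed reference, 12959 of all probe sets were lower in neurons (main 8523), and in regenerating axons 3707 were lower and 3539 higher (main 104 and 3), 7 of them tubulins among the lower (main 1). With the spread from the group only, 0 tubulins and 92 of all probe sets were lower in regenerating axons, and 1 was higher.

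Fitting the mean of each gene tests fewer features. It gave 5249 genes higher and 3271 lower in neurons than in uninjured axons (main 8820 and 8523 probe sets), and 6279 higher and 4444 lower than in regenerating axons (main 10930 and 11568). It gave 0 tubulins lower in both, 5 genes higher in regenerating axons and 0 tubulins lower there. For *Tubb3* 1369901_at the gene mean turned the sign to log2 1.12 and 2.04 in neurons and to -0.93 in regenerating axons.

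Scaling to hybridisation controls left 14 and 26 probe sets lower in neurons than in uninjured and regenerating axons, with 0 tubulins, and 16416 higher than in regenerating axons. In regenerating axons it gave 955 lower, 4 of them tubulins, and 0 higher. It turned *Tubb3* 1369901_at to log2 0.31 and 0.64 in neurons and -0.33 in regenerating axons, and *Tuba4a* to -0.20 in regenerating axons. These shifts follow from the control ratios. The cause of other changes was not tested.

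With the replicate block, 600 probe sets were lower and 68 higher in regenerating axons, and *Tubb2b* passed as higher in neurons (log2 1.72, limma adjusted p = 0.0188). It changed no other tubulin call. Same-numbered arrays did not deviate together throughout (r = -0.31 to 0.13 over all probe sets), so the numbers were not taken as pairs.

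Leaving out each array in turn gave 0 to 462 probe sets lower and 0 to 17 higher in regenerating axons, with 0 to 3 tubulins lower. Against uninjured axons it gave 7 to 8 tubulins higher in neurons and 1 lower. A ratio carries no signal over background, so weak hybridisation could not be separated from low expression.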

Other observations

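Several probe sets list a tubulin together with another symbol and enter no count above. The probe set 1367579_a_at, listed for *Tuba1a*, *Tuba1b* and *Tuba1c* together, read 68.0, 34.7 and 66.7 in neuron arrays 1 to 3, which is above every reading of the 9 tubulin probe sets on the same arrays. It read 0.365, 0.153 and 0.144 in the regenerating arrays. In uninjured arrays 1 to 3 it read 0.293, 1 and 2.44, and in arrays 4 to 6 it stayed between 0.993 and 1.02. The low reading in uninjured array 1 and the high reading in array 3 follow the same order as those of *Tubb2a* and *Tubb2b*. Which of the 3 genes these readings come from cannot be told.

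A further 2 probe sets list *Tubb4b* together with the complement gene *C7*. One, 1383291_at, read 0.304 to 0.476 in neurons and 1.23 to 2.16 in regenerating axons, and the other, 1388557_at, read 0.826 to 0.979 in neurons and 0.538 to 0.655 in regenerating axons. *Tubb4b* 1371390_at read 10.1 to 18.5 in neurons, far above both, and 0.462 to 0.832 in regenerating axons, a range that holds all 3 readings of 1388557_at.

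Control probe sets for GAPDH, a glycolytic enzyme, were also read on these arrays. The 3′ probe set had ratios of 0.355, 0.159 and 0.142 in regenerating arrays 1 to 3 and 0.620 in uninjured array 1, and 13.7, 7.19 and 16.6 in neuron arrays 1 to 3. The 5′ and middle probe sets had 0.138 to 0.495 in the regenerating arrays and 20.3 to 70.8 in the neuron arrays. Beta-actin, by its own 3′ probe set, had 0.809, 0.693 and 0.625 in the regenerating arrays and 1 in uninjured array 1, and 71.2, 38.4 and 80.1 in the neuron arrays. Its 5′ and middle probe sets had 0.699 to 1.07 in the regenerating arrays and 28.6 to 179.3 in the neuron arrays.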
